A study of Mus musculus with 8 samples.

Results

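Milk protein genes were followed in inguinal mammary glands of gonadectomized mice after injection of 17β-estradiol (E2), the main circulating estrogen. The members were taken by gene symbol. The set held 8 genes, namely the caseins Csn1s1, Csn1s2a, Csn2 and Csn3, the whey protein genes Lalba and Wap, the fat globule protein gene Btn1a1, and Glycam1. All 8 were on the array, with 16 probe sets of 45101, as 8 of the 18193 genes named on it. Csn1s2a had 5 probe sets, Btn1a1 had 3, Csn2 and Csn3 had 2 each, and Csn1s1, Lalba, Wap and Glycam1 had 1 each. The data were 8 Affymetrix arrays of mammary gland tissue from gonadectomized (GDX) virgin mice, 12 to 13 weeks old. The E2 groups were injected under the skin 1, 3, 6, 12, 18 or 24 h before collection and had 1 array each, and the control groups received a vehicle solution and had 2 arrays. All groups, controls included, shared the gonadectomy, and the sources used here name no strain or sex. The times come from the sample titles, while every description reads 24 h, and the dose is left out because the labels give it with conflicting units.

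Tissue was taken from every mouse in a group, per the labels, but the sources used here do not say whether an array held pooled RNA. Both vehicle arrays were labelled 24 h, so at 1 to 18 h E2 cannot be told apart from the injection or the time of day. The deposited values are intensities on a linear scale, with array medians between 173.9 and 180.49. Over the 45037 probe sets left after 64 control probe sets were removed, the SD of the log2 difference between the vehicle arrays was 0.136. Markers of other tissues differed between arrays. The mean of 12 skeletal muscle markers exceeded its vehicle mean by 0.22 (12 h) to 1.27 (6 h) on the log2 scale on the E2 arrays, and the vehicle arrays lay at 0.19 and -0.19. Their part in the results below was not tested.

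Caseins are the phosphoproteins that form the micelles of milk, and they carry calcium phosphate. The genes are known to be switched on in the alveolar luminal cells of the mammary gland in pregnancy and lactation, when prolactin acts through its receptor, JAK2 and the transcription factor STAT5, together with glucocorticoid. STAT5 is known to bind the motif TTCNNNGAA. Estrogen acts on the gland through the estrogen receptor of a subset of luminal cells and raises prolactin release from the pituitary. In a virgin gland milk genes are known to be expressed at low level. On these 8 arrays the mean level of each gene's brightest probe set was ranked among all probe sets. Its percentile was 98.6 for Glycam1, 95.9 for Csn3, 75.2 for Btn1a1 and 71.3 for Csn1s1. It was 56.5 for Lalba, 40.8 for Csn2, 40.2 for Wap and 20.7 for Csn1s2a.

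The 250 bases before the start site were read for the members listed in the RefSeq promoter table (build GRCm38.p6), which were Csn1s1, Csn1s2a, Csn2, Lalba, Wap and Glycam1. They are shown for the caseins Csn2 and Csn1s1, whose intensity was highest at 12 h, for a milk gene that did not share that peak (Wap) and for Glycam1. The windows of Lalba, also highest at 12 h, and of Csn1s2a were read but are not printed. Each printed window runs 5′ to 3′ on the gene's strand, and capitals mark the letters TTCNNNGAA.
Csn2 (chr5:87699426-87699675, minus strand): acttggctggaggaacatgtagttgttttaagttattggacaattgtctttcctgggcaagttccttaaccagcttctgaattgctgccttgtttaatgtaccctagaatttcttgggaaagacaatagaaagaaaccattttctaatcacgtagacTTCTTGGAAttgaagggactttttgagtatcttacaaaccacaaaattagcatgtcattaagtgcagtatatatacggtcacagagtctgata
Csn1s1 (chr5:87665958-87666207, plus strand): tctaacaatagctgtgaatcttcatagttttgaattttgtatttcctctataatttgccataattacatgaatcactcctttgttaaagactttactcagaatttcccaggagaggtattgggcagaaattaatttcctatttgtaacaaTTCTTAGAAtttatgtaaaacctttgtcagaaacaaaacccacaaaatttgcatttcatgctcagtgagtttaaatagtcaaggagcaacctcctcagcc
Wap (chr11:6638650-6638899, minus strand): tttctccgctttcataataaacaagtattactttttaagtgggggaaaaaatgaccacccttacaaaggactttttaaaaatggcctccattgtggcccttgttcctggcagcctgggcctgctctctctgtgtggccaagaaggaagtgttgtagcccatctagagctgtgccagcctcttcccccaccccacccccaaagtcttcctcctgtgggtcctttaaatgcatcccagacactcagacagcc
Glycam1 (chr15:103565082-103565331, minus strand): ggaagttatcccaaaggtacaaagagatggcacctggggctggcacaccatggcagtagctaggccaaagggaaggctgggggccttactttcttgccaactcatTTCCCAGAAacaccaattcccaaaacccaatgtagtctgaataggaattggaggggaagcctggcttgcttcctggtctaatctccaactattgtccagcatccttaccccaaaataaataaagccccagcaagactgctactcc
The letters TTCNNNGAA, a motif that reads the same on both strands, occurred once in Csn2, at positions -93 to -85 from the start site, once in Csn1s1 at -100 to -92 and once in Glycam1 at -145 to -137. They did not occur in these windows of Csn1s2a, Lalba and Wap. Of 32851 promoter windows of the same length, 7.02% held the motif. The full estrogen response element, the letters GGTCA and their reverse complement 3 bases apart, was found in 0 of the 6 member windows and in 0.0639% of all windows. The single arm GGTCA, searched on both strands and contained in the full element, occurred in Csn2, Lalba and Wap and in 35.2% of all windows.

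On the 12 h array, Csn2, Btn1a1, Lalba and Csn3 stood above their level on every other array. Btn1a1, the butyrophilin of the milk fat globule membrane, was 1.98-fold above the vehicle mean by the brightest of its 3 probe sets. Csn2, which encodes β-casein, was 1.35-fold above it by the brighter of its 2 probe sets. The dimmer Csn2 probe set gave 2.93-fold, over a vehicle level near 30 that was not shown to lie above the background of the array, so the size of that fold is uncertain. Lalba, the α-lactalbumin subunit of lactose synthase, was 1.57-fold above and Csn3, κ-casein, 1.46-fold above by the brighter of its 2. By 18 h and 24 h the dimmer Csn2 probe set, the brightest of Btn1a1 and that of Lalba lay 0.02 to 0.24 above vehicle on the log2 scale. The second Btn1a1 probe set lay at 0.18 and -0.01 at these times. Csn3 stayed higher for longer, at 0.38 and 0.07 by its brighter probe set and at 0.39 and 0.35 by its dimmer one. Wap, the whey acidic protein, and Glycam1 did not share the peak. With 1 array at 12 h the peak has no replicate check.

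**Figure D1:**
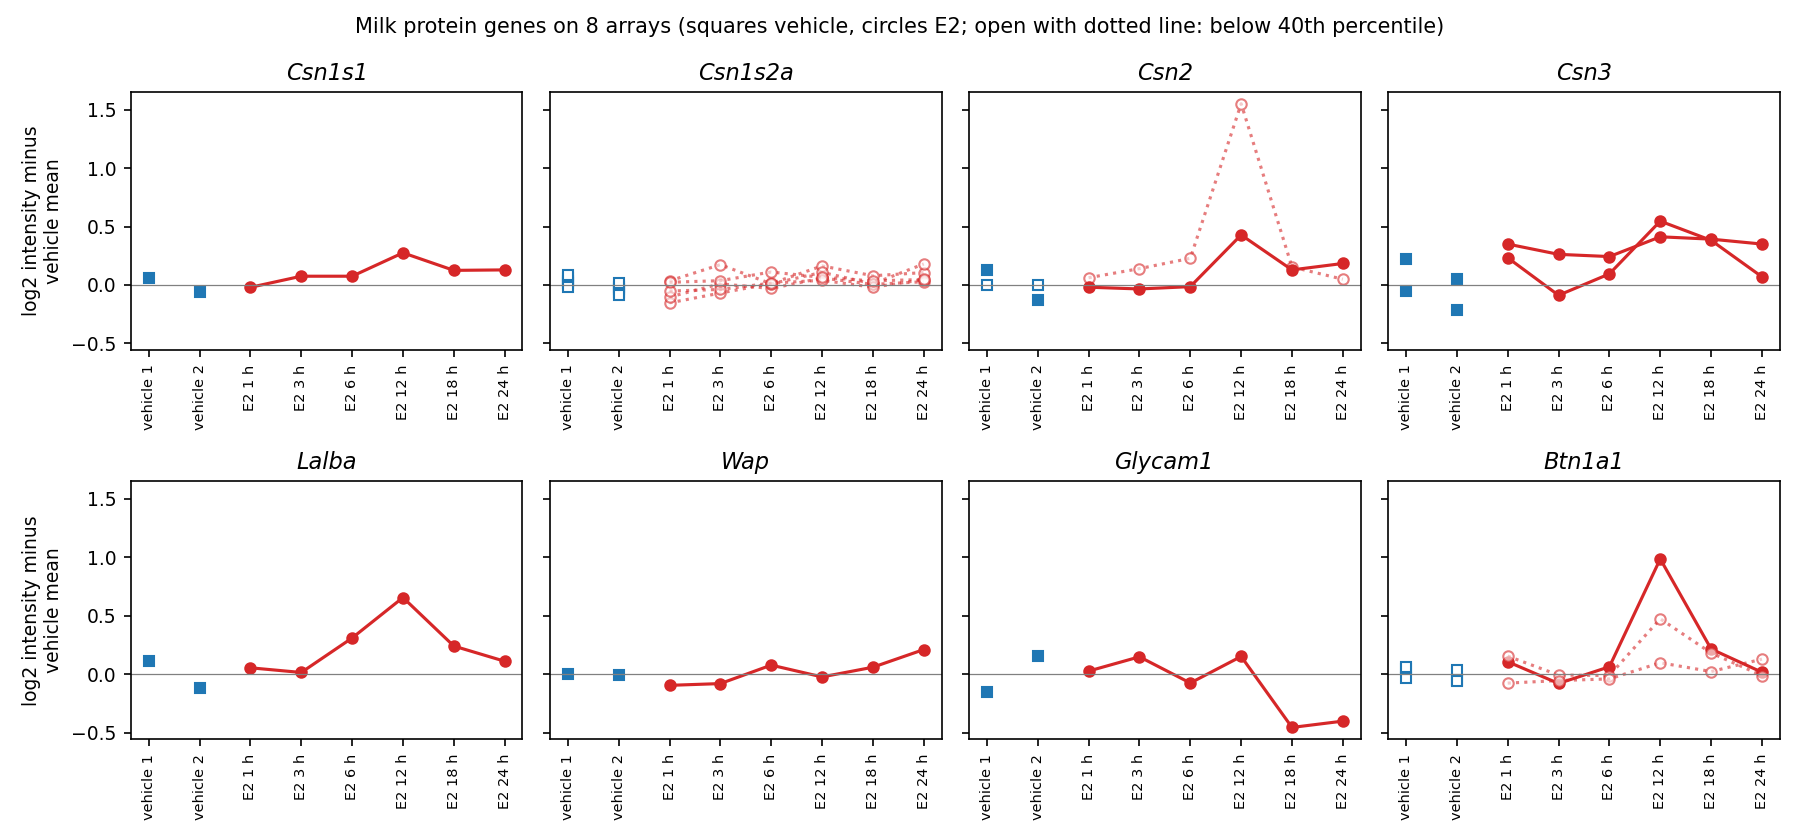
The log2 intensity of each of the 16 member probe sets minus the mean of its 2 vehicle arrays (y axis) is plotted for the 8 arrays (x axis), with 1 panel per gene, squares for vehicle, circles joined by lines for E2, and open symbols with dotted lines for probe sets whose mean lies below the 40th percentile of all probe sets. The 12 h circle is the highest in 10 of the 16 probe sets, at 1.55 for the dimmer Csn2 probe set, 0.43 for the brighter one and 0.99 for the brightest of Btn1a1.

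Csn2 was measured by 2 probe sets that agreed on the time and differed in size. For the dimmer one the intensity was 30.3 and 30.2 on the vehicle arrays, and in order of time 31.6 (1 h), 33.3 (3 h), 35.4 (6 h), 88.6 (12 h), 33.7 (18 h) and 31.3 (24 h) on the E2 arrays. The 12 h array alone stood apart, and the other 5 E2 arrays lay slightly above both vehicle arrays. For the brighter one the intensity was 132.5 and 111 on the vehicle arrays, then 119.7, 118.5, 120.1, 163, 132.6 and 138 from 1 to 24 h. Here too 12 h was highest, at a log2 difference from vehicle of 0.43, with 1.55 for the dimmer probe set, and the arrays from 1 to 6 h lay between the vehicle arrays. By its _s_at suffix in Affymetrix's naming, the brighter one holds probes that can match transcripts of more than 1 gene. The probe set with the larger rise lay below the 40th percentile of all probe sets in its mean level (a log2 level of 6.97), and the other lay just above it, with means of 5.19 and 7.01.

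Csn3 had the same highest array with a broader course. Its brighter probe set read 1793 and 1921 on the vehicle arrays, and 2181 (1 h), 1746 (3 h), 1983 (6 h), 2711 (12 h), 2418 (18 h) and 1949 (24 h) on the E2 arrays. The 12 h and 18 h arrays lay above all others, and 24 h was close to vehicle. The dimmer Csn3 probe set read 185 and 136.8 on the vehicle arrays and between 188 and 212 on the 6 E2 arrays. All 6 E2 arrays exceeded both vehicle arrays there, and the vehicle arrays themselves differed by 0.44 on the log2 scale.

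Csn1s1, which encodes an αs1-casein, moved little. Its intensity was 386 and 355.5 on the vehicle arrays, then 365.5, 390.5, 390.6, 449, 404 and 405 from 1 to 24 h. The 12 h value was again the highest, at a log2 difference of 0.28 from vehicle, and 18 h and 24 h stayed just above both vehicle arrays. Csn1s2a, an αs2-casein-like gene, lay below the 40th percentile in all 5 of its probe sets. Their ranges over the 8 arrays were 0.13 to 0.32 on the log2 scale, and the 12 h array was highest in 2 of the 5. These values do not separate a low level of this transcript from the background of the array.

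Lalba read 216 and 184 on the vehicle arrays, and 207 (1 h), 202 (3 h), 247 (6 h), 314.5 (12 h), 236 (18 h) and 215.5 (24 h) on the E2 arrays. It exceeded both vehicle arrays from 6 to 18 h and lay between them at 24 h. Wap, in contrast, read 124.5 and 123.7 on the vehicle arrays, then 116.3, 117.4, 131, 122, 129.5 and 143.7 from 1 to 24 h. Its 12 h value lay below both vehicle arrays and its 24 h value was the highest. Wap at 12 h differed from vehicle by -0.02 in log2 intensity.

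The brightest Btn1a1 probe set read 427 and 400.1 on the vehicle arrays, and 445 (1 h), 391.5 (3 h), 432 (6 h), 819 (12 h), 480.4 (18 h) and 419 (24 h) on the E2 arrays. Apart from 12 h, its arrays spanned 391.5 to 480.4, so that the 12 h array lay 1.71-fold above the next highest. The second Btn1a1 probe set, below the 40th percentile, gave the same highest array at 43.4, against 30.5 and 32.1 on the vehicle arrays. The third, also below it, was highest at 24 h and ranged over 0.20 on the log2 scale.

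The lead of the 12 h array over the highest of the other 7 arrays was computed for every probe set. That of Csn2 by its dimmer probe set, 1.32 on the log2 scale, was the largest of the 45037 probe sets, and that of Btn1a1 by its brightest, 0.77, was the next in order. The other 7 arrays of that Csn2 probe set read 30.2 to 35.4, in the range of the Csn1s2a probe sets, so its lead and rank rest on a baseline not shown to lie above background. Lalba, at 0.35, stood at rank 13, the second Btn1a1 probe set at rank 19 and the brighter Csn2 probe set at rank 26. The 2 leading probe sets kept ranks 1 and 2 with quantile normalization and with arrays centred on their median. In all, 10 of the 16 member probe sets were highest on the 12 h array, beside 10.6% of all probe sets. Among the 8 members at or above the 40th percentile it was 6, and the share over all probe sets above that level is not given. Both the lead and this count were chosen after the member values were seen, and no lead ranking is given for another array.

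**Figure D2:**
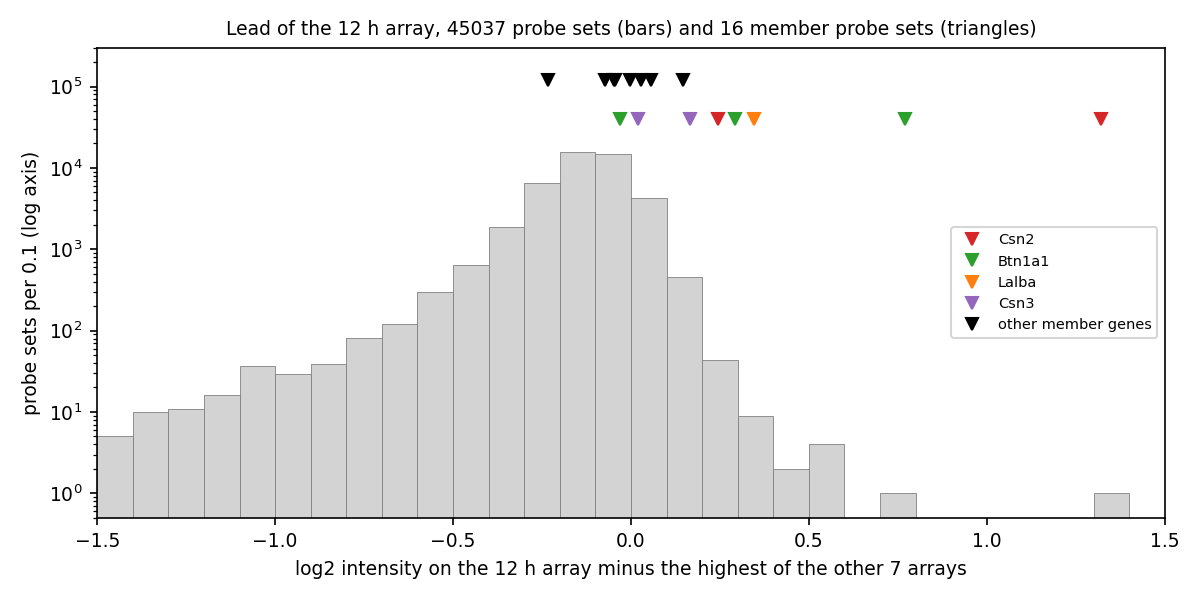
Bars count probe sets (log y axis) by the log2 intensity on the 12 h array minus the highest of the other 7 arrays (x axis, in steps of 0.1), and triangles mark the 16 member probe sets. The dimmer Csn2 probe set at 1.32 and Btn1a1 at 0.77 lie to the right of all other probe sets, and Wap lies at -0.23.

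Set against the vehicle arrays, 2 of the 16 member probe sets, 1 each of Csn2 and Btn1a1, exceeded both by 1.5-fold or more at 12 h, beside 0.0777% of all probe sets. At least 2-fold higher was 1, that of Csn2, beside 0.0311%. Of the 18015 probe sets below the 40th percentile, 0.0167% were at least 1.5-fold higher at 12 h. At 1, 3, 6, 18 and 24 h, 0 member probe sets exceeded both controls by 1.5-fold or more, where 0.124%, 0.306%, 0.306%, 0.0688% and 0.0977% of all probe sets were higher. With vehicle 2 as the only control the 12 h count was 4, and with vehicle 1 as the only control it was 3. The shares above are for both controls, and none is given for a single control. Above both vehicle arrays by any amount were 6, 5, 8, 13, 11 and 10 of the 16 member probe sets in order of time from 1 h to 24 h, beside 33.2%, 31.5%, 39.3%, 32.6%, 37.1% and 40% of all probe sets. A limma fit with 7 group means, which has 1 residual degree of freedom and takes the spread of unreplicated times from the vehicle pair and the trend over all probe sets, gave adjusted p = 0.000371 for the dimmer Csn2 probe set and 0.0059 for Btn1a1 at 12 h. With 1 array at 12 h these values do not measure variation between glands at that time. In that fit 0.0755% of all probe sets were below 0.05 at 12 h, and Csn3 (adjusted p = 0.139), Lalba (0.206) and the second Btn1a1 probe set (0.22) were not.

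Grouping the times into an early window (1, 3 and 6 h, n = 3 arrays) and a late window (12, 18 and 24 h, n = 3) asked whether the late level differed from vehicle (n = 2) beyond the spread between arrays. Fitted over all 45037 probe sets in limma with 5 residual degrees of freedom, 0 of the 16 member probe sets reached an adjusted p below 0.05, and so did 0% of all probe sets in either direction. At an unadjusted p below 0.05 there were 5 member probe sets, all higher, where 3.52% of all probe sets were higher and 3.88% lower. Late minus vehicle was 0.38 ± 0.104 (SE) on the log2 scale for the dimmer Csn3 probe set (adjusted p = 0.659), 0.33 ± 0.123 for the brighter one (adjusted p = 0.659), 0.34 ± 0.144 for Lalba (adjusted p = 0.662), 0.25 ± 0.098 for the brighter Csn2 probe set (adjusted p = 0.659) and 0.18 ± 0.0693 for Csn1s1 (adjusted p = 0.659). The larger differences of the dimmer Csn2 probe set (0.58 ± 0.326, adjusted p = 0.689) and the brightest Btn1a1 probe set (0.41 ± 0.207, adjusted p = 0.675) carried larger errors. Their late arrays spread by an SD of 0.838 and 0.512. The SD of their vehicle arrays was 0.0047 and 0.0674. A p that misses the threshold does not show that the levels were alike.

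Late minus vehicle was above 0 for 15 of the 16 member probe sets, where 55.6% of all probe sets were above 0, and Glycam1 was the exception. With the mean of the luminal markers as a covariate 11 of the 16 were above 0 and the member median was 0.09, and the dimmer Csn2 probe set (-0.26), the brighter of Csn3 (-0.35) and the brightest and second of Btn1a1 (-0.42 and -0.33) turned negative. The probe sets of a gene share their transcript and the members share their arrays, so these are not independent. Without the covariate the member median was 0.15, beside 0.01 for all probe sets. All 3 late arrays lay above both vehicle arrays in 7 of the 16, beside 13.6% of all. The 12 h array set much of the size. Without it the late difference was 0.10 for the dimmer Csn2 probe set, 0.16 for the brighter one, 0.12 for the brightest of Btn1a1, 0.18 for Lalba and 0.23 for the brighter of Csn3, and the member median was 0.10. The dimmer Csn3 probe set lay at 0.37 without it.

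**Figure D3:**
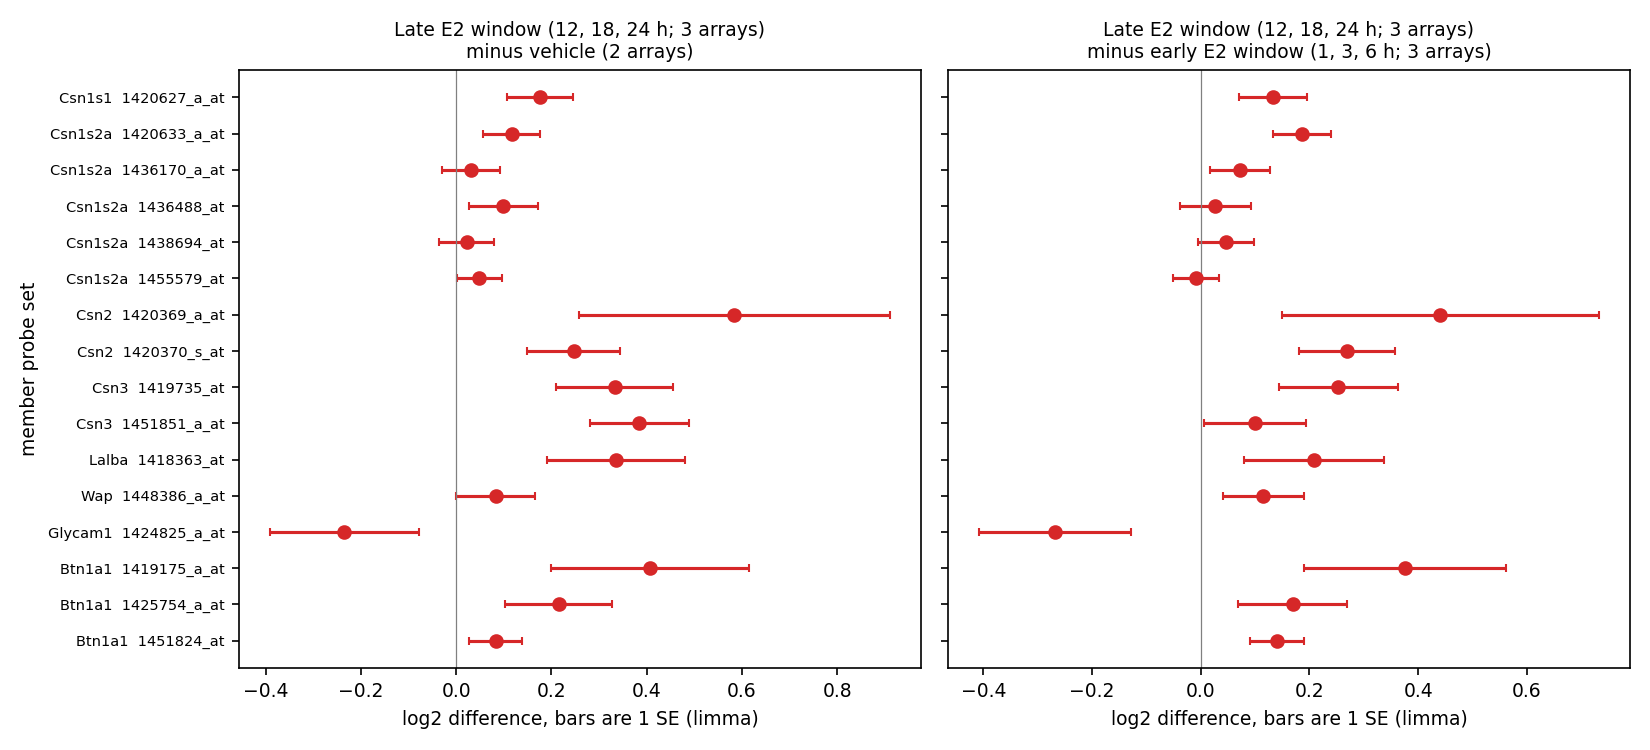
Points are log2 differences (x axis) of the 16 member probe sets (y axis) for the late E2 window minus vehicle on the left and the late minus the early E2 window on the right, and bars are 1 SE from limma. Of the member probe sets, 15 lie right of 0 on the left and 14 on the right, with Glycam1 left of 0 in both, and the adjusted p lies above 0.05 for each.

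Early minus vehicle had a member median of 0.04, beside 0.01 for all probe sets, with 10 of 16 above 0 where 53.9% of all were. In limma 0 members were called, with a smallest adjusted p of 0.801, that of the dimmer Csn3 probe set (0.28 ± 0.104), beside 0.00444% of all probe sets called higher. At an unadjusted p below 0.05 there was 1 member, higher, where 3.19% of all probe sets were higher and 2.25% lower. The brighter Csn2 probe set lay at -0.02 and the brightest of Btn1a1 at 0.03.

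The late window was also set against the early window directly, which leaves the vehicle arrays out of the difference. The member median was 0.14, beside 0.01 for all probe sets, and 14 of 16 lay above 0 where 52.4% of all did. In limma 0 members reached an adjusted p below 0.05, beside 0.104% of all probe sets called higher and 0.118% called lower, and 4 members, all higher, had an unadjusted p below 0.05, where 5.7% of all probe sets were higher and 7.53% lower. Late minus early was 0.27 ± 0.0877 for the brighter Csn2 probe set (adjusted p = 0.251) and 0.19 ± 0.0531 for 1 of the Csn1s2a probe sets, with the smallest adjusted p among the members (0.206). A slope on log2 hours over the 6 E2 arrays called 0 members, with a smallest adjusted p of 0.146, and 0.0377% of all probe sets, all of them lower. The slope was -0.10 per doubling of time for Glycam1 (adjusted p = 0.271) and 0.05 for Wap (adjusted p = 0.244), and 4 members had an unadjusted p below 0.05, 3 with a positive slope and Glycam1 with a negative one, where 8.13% of all probe sets were positive and 8.8% negative.

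Glycam1 followed another course than the caseins. The gene encodes a mucin-like glycoprotein that is secreted into milk and is also known from the high endothelial venules of lymph nodes, where it carries ligands of L-selectin. The inguinal mammary fat pad is known to hold a lymph node. Glycam1 read 4060 and 5031 on the vehicle arrays, and 4605 (1 h), 5010 (3 h), 4292 (6 h), 5021 (12 h), 3297 (18 h) and 3422 (24 h) on the E2 arrays. The 18 h and 24 h arrays lay below all others, and 12 h lay level with 3 h and with the higher vehicle array. Late minus vehicle was -0.23 ± 0.156 (SE) on the log2 scale (adjusted p = 0.716 in limma), and without the 12 h array it was -0.43 (adjusted p = 0.343). The vehicle arrays differed by 0.31.

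The means of lymphocyte markers had a course like that of Glycam1. The mean of 9 measured B lymphocyte markers lay at -0.14 and 0.14 on the vehicle arrays relative to their mean, and at 0.11, 0.10, -0.15, 0.13, -0.42 and -0.40 from 1 to 24 h on the log2 scale. Glycam1 itself lay at -0.46 at 18 h and -0.40 at 24 h. The mean of 9 T lymphocyte markers lay at -0.32 and -0.24 at these times. Even so, 2 of the 9 lay above both vehicle arrays at 18 h and 2 at 24 h, where 6599 and 7448 of all 18193 genes did. Of 7 measured markers of high endothelial venules and lymph node stroma, the mean stayed between -0.08 and 0.05 on the E2 arrays, with the sulfotransferase gene Chst4 at 7.34 to 7.40 and the fucosyltransferase gene Fut7 at 7.92 to 8.11 in log2 level. Madcam1, an adhesion molecule of such venules, lay at 6.48 at 18 h and 6.57 at 24 h, against 6.88 and 6.67 on the vehicle arrays. Cxcl13 lay at 10.33 and 10.40 at these times, against 10.44 and 10.59 on the vehicle arrays. The genes whose course over the 8 arrays was most like that of Glycam1, among 728 genes with a range of at least 0.5, were Cd79b (Pearson r = 0.99), Btla (0.99), Fcer2a (0.99), H2-Oa (0.98), Tbc1d10c (0.98), Ccr7 (0.98), Cd79a (0.98) and Ighv14-2 (0.97). These genes share the 8 arrays and their tissue makeup, and in bulk tissue fewer cells of a type and less RNA per cell cannot be told apart.

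**Figure D4:**
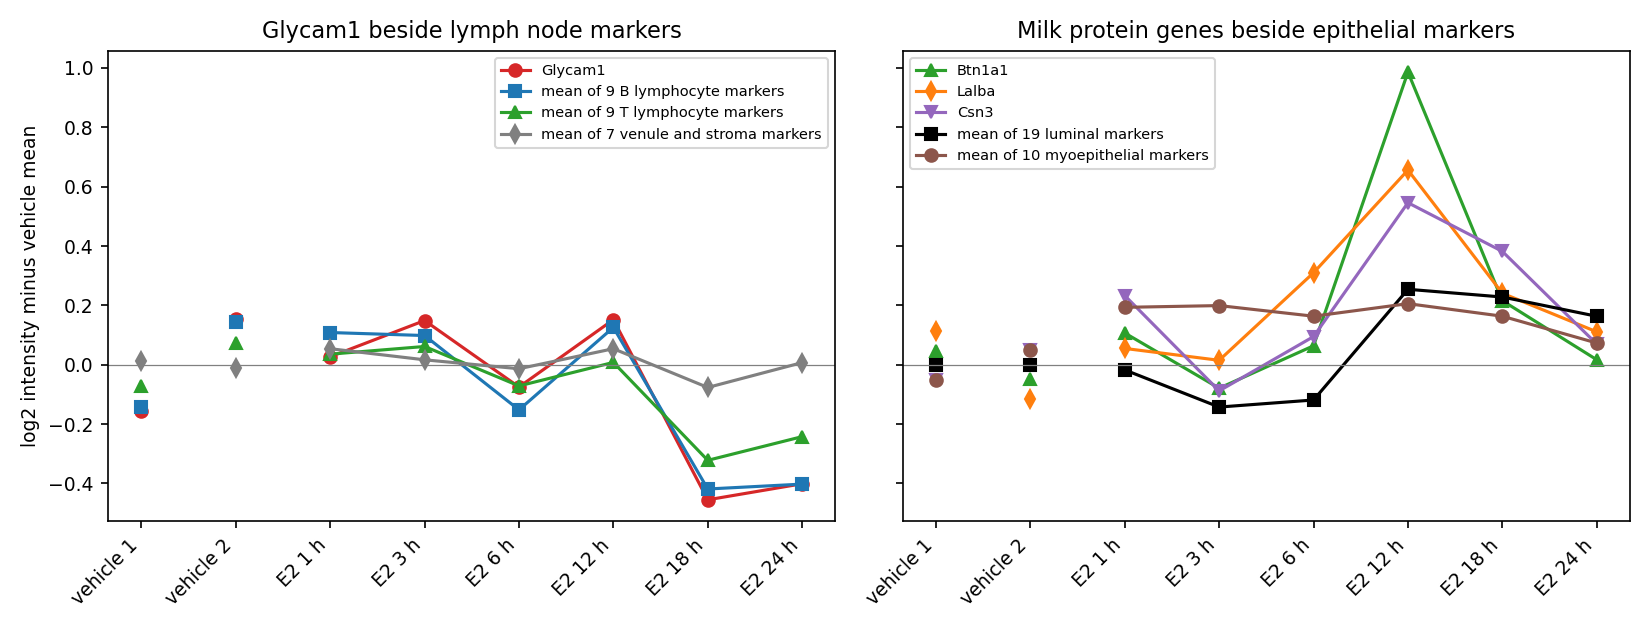
Log2 intensity minus the vehicle mean (y axis) is plotted over the 8 arrays (x axis), for Glycam1 with means of 9 B lymphocyte, 9 T lymphocyte and 7 venule and stroma markers on the left, and for Btn1a1, Lalba and Csn3 with means of 19 luminal and 10 myoepithelial markers on the right. Glycam1 and the B lymphocyte mean lie together at -0.46 and -0.42 at 18 h, while the 3 milk genes exceed the luminal mean of 0.25 at 12 h.

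Markers of the luminal epithelium, the layer that makes milk, also differed between early and late arrays. The mean of 19 measured luminal markers lay at -0.02, -0.14, -0.12, 0.25, 0.23 and 0.16 relative to vehicle from 1 to 24 h. Their median ordered the late arrays otherwise, at 0.09 (12 h), 0.13 (18 h) and 0.15 (24 h), and 11, 15 and 13 of the 19 exceeded both vehicle arrays at these times. Of all 18193 genes, 6500, 6599 and 7448 did so. At 12 h Krt8 lay at 1.37 and Krt18 at 0.81. In the late window 18 of the 19 were above vehicle, with a median of 0.17, and 0 were called in limma. Of all 18193 genes, 10248 were above vehicle and 0 were called. Against the early window Krt8 (1.15 ± 0.177, adjusted p = 0.0375) and Cldn3 (0.46 ± 0.069, adjusted p = 0.0375), a tight junction claudin, rose, beside 27 of all 18193 genes called higher. Krt18 lay 0.49 above vehicle in the late window, Krt19 0.53 and Krt7 0.21, with adjusted p between 0.659 and 0.672. At 12 h Btn1a1 exceeded the luminal mean by 0.73, Lalba by 0.40 and Csn3 by 0.29 on the log2 scale, the brighter Csn2 probe set by 0.17 and Csn1s1 by 0.02. Below the luminal mean were Glycam1 (-0.10), Csn1s2a (-0.19) and Wap (-0.28). At 18 h and 24 h the same differences were -0.01 and -0.15 for Btn1a1 and 0.01 and -0.05 for Lalba. Of 10 myoepithelial markers, the contractile basal layer, 10 were above both vehicle arrays at 12 h, with a mean of 0.21, where 6500 of 18193 genes were above both. The mean was alike at 1 h (0.19, 9 of 10 above both) and 3 h (0.20, 8 of 10), where 6562 and 5981 of all 18193 genes were above both. The luminal mean was used as a covariate above, where it overlapped with the windows. Beyond that fit, the part of the luminal or myoepithelial markers in the milk gene values was not tested.

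Alveolar precursor markers varied among themselves at 12 h. The mean of 7 measured markers other than the members was 0.12 and their median 0.09. The mean was the highest of the 6 E2 arrays, with 0.10 at 1 h, while the median was higher at 6 h (0.11). At 12 h Wfdc18 lay at 0.62, Elf5, the luminal transcription factor of the alveolar lineage, at 0.49 and the aldehyde dehydrogenase gene Aldh1a3 at -0.23. Kit lay at 0.09 and Cd14 at -0.11 at that time. Elf5 read 8.31 and 8.54 in log2 level on the vehicle arrays and 8.91 at 12 h, its highest array. In the late window 4 of the 7 were above vehicle and 0 were called, beside 10248 of all 18193 genes above and 0 called. Adipocyte markers, 8 measured, averaged 0.08 at 12 h and -0.12 at 24 h.

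Other genes of milk secretion were counted from lists chosen with earlier results of these data known. Of 15 measured other secreted and transport proteins of milk, 11 lay above vehicle in the late window (median 0.09) and 0 were called in either direction. Against the early window Ltf, the iron-binding protein lactoferrin, rose (0.39 ± 0.0521, adjusted p = 0.0313 in limma), beside 27 of all 18193 genes called higher. Ltf read 10.11, 10.22 and 10.20 in log2 level on the late arrays, against 9.74 and 9.81 on the vehicle arrays, and was not highest at 12 h. Wfdc18, a whey acidic protein family gene, was highest at 12 h with 10.31, against 9.75 and 9.64 on the vehicle arrays. Csn1s2b lay between 5.61 and 6.01 over all arrays. Of 15 measured genes of the milk fat globule and milk lipid secretion 11 lay above vehicle in the late window and 0 were called, with Muc1, an apical mucin, at 0.34, Plin2, the lipid droplet coat protein, at 0.16, Mfge8 at 0.07 and Xdh, xanthine dehydrogenase and a partner of butyrophilin in the globule membrane, at -0.01. Of 8 measured genes of lactose synthesis and its sugar supply 5 lay above and 0 were called, and B4galt1, the galactosyltransferase that pairs with α-lactalbumin, lay at -0.04. The medians of these lists in the late window were 0.04 for the fat globule and 0.05 for lactose synthesis, beside 0.01 for all genes. Of all 18193 genes, 10248 lay above vehicle there and 0 were called.

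Genes of the prolactin and STAT5 pathway differed among themselves in course. Elf5, which is also on this list, was highest at 12 h, at 0.49 above vehicle. Stat5a read 10.06 and 9.97 in log2 level on the vehicle arrays, and 10.30 (1 h), 10.76 (3 h), 10.33 (6 h), 10.24 (12 h), 10.10 (18 h) and 9.96 (24 h) on the E2 arrays. It was highest at 3 h, 0.74 above the vehicle mean, and early minus vehicle was 0.44 (adjusted p = 0.616). Jak2 was within 0.16 of the vehicle mean at every time, Ghr, the growth hormone receptor, was highest at 1 h with 13.02, and Prl lay between 6.12 and 6.48. Of the 22 measured pathway genes 0 were called against vehicle in either window, and late against early Socs2, a feedback inhibitor of growth hormone and prolactin signalling, fell (-0.90 ± 0.106, adjusted p = 0.0244). In the late window 11 of 22 lay above vehicle, with a median of -0.01, where 10248 of all 18193 genes lay above. Late against early, 29 of all 18193 genes were called lower.

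The genes whose course was most like the members were found over the 8 arrays with the mean of the 5 member genes at or above the 40th percentile of genes (Csn1s1, Csn3, Lalba, Glycam1 and Btn1a1). They were Stc2, a secreted glycoprotein hormone (Pearson r = 0.83), Chil1, a chitinase-like protein (0.82), Wfdc18 (0.81), Krt8 (0.74), Lyve1, a hyaluronan receptor of lymphatic endothelium (0.74), Elf5 (0.72), Lrg1 (0.71) and Fcgbp (0.71). With Glycam1 left out of the mean, a choice made after its values were seen, Wfdc18 (0.92), Krt8 (0.87) and Stc2 (0.84) led. Among the members, Pearson r over the 8 arrays was 0.90 between Lalba and Btn1a1, 0.92 between Csn1s1 and Csn2 and 0.86 between Csn3 and Btn1a1. Over the 7 arrays without 12 h, an alternative chosen after seeing the data, these were 0.67, 0.80 and 0.88. Other pairs fell further without 12 h, from 0.61 to 0.13 for Csn1s1 and Csn3 and from 0.79 to 0.33 for Csn1s1 and Btn1a1. For Csn2 and Btn1a1 the fall was from 0.85 to 0.47. Wap went the other way, from 0.26 to 0.62 with Csn1s1 and from 0.24 to 0.64 with Csn2. Between Glycam1 and Btn1a1 r was 0.19 over 8 arrays and -0.68 without 12 h, and between Wap and Btn1a1 it was -0.12 and 0.16.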

How the data were processed

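Total RNA of mammary gland tissue was hybridised to 1-colour Affymetrix arrays, per the labels' protocols. GCOS 1.0 and RMA appear in the submitters' processing notes with neither role nor order. The deposited values are intensity values between 13.8 and 23591 on a linear scale with like array medians, and log2 was taken of the deposited values with no further normalization. No detection calls were used. The number of arrays limits the precision.

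Probe sets were named from the platform annotation, in which 34945 carried 1 symbol, 932 several and 9160 none, with 34741 matched to RefSeq by Entrez identifier. Members and lists were chosen with earlier results of these data known. Of 16 member probe sets, 8 passed the 40th percentile of mean level (27022 of 45037 probe sets did), 5 of 8 genes at gene level, where each gene took its probe set with the highest mean.

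limma 3.58.1 under R 4.3.3 was fitted to all 45037 probe sets without a level filter, with a mean-variance trend, two-sided tests and Benjamini-Hochberg adjustment over all of them. The fit was tested on simulated data. Nothing says the vehicle arrays came from separate animals, so p-values reflect only the array-to-array spread, possibly technical. The windows place different times in 1 group. Single times were described by fold from both vehicle arrays. Genes open to naming were all members, the first 4 of each list in list order, and the 8 of most alike course. Not all of the first 4 of each list are printed, so those printed are a choice. Called list genes outside this rule were chosen after their values were seen. Alternatives were a level filter, quantile and median normalization, variance settings, 1 value per gene, a luminal covariate, other fold limits, 7 group means and each array left out. Member sequences come from RefSeq tables of GRCm38.p6, and Csn3 and Btn1a1 are named only.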

Additional observations from a re-analysis of the deposited data

How the results depend on the processing

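In the late window against vehicle, the early window against vehicle, the late against the early window and the slope, 0 member probe sets were called under every alternative run (16, 16, 16 and 13 settings), and the smallest member adjusted p in limma lay between 0.0855 and 0.665 for late against early and between 0.233 and 1 for late against vehicle. Leaving out 1 array gave 0 calls throughout these comparisons. The median late shift of the member probe sets, 0.15, was 0.29 over the 8 at or above the 40th percentile, and between 0.10 (without 12 h) and 0.17 (without 18 h) with 1 array left out. The count at 12 h, 2 at 1.5-fold, was 1 at 2-fold and 5 at a looser limit of 0.32 on the log2 scale, and 3 to 4 with 1 vehicle array left out. At 18 h, 0 at 1.5-fold, it was 1 at that looser limit and 0 to 2 with 1 vehicle array left out. The number of member probe sets highest at 12 h, 10, was 6 of the 8 at or above the 40th percentile and 11 with quantile normalization. The count and its alternatives were chosen after seeing the data. No share over all probe sets is given beside these alternative counts, other than that at 2-fold above. The level filter, the variance settings and leaving out an early E2 array cannot alter a late shift, so they could not change its sign. Of 216 late shifts of single member probe sets under alternatives, those settings included, 7 changed sign, none of them called. With the luminal marker mean as a covariate, which leaves 4 residual degrees of freedom, these were the dimmer Csn2 probe set at -0.26, the brighter of Csn3 at -0.35, and the brightest and second of Btn1a1 at -0.42 and -0.33, and the cause was not tested. The brightest Csn1s2a probe set lay at -0.0047 with quantile normalization. With 1 array left out it ranged from -0.001 (without vehicle 2) to 0.064 (without vehicle 1), and another Csn1s2a probe set from -0.062 to 0.106 for the same arrays. No paired analysis was possible because the E2 groups have 1 array each and share no replicate numbers with the vehicle arrays. No detection calls were used, so that low probe sets such as those of Csn1s2a are limited by background.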

Other observations

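The probe sets whose 12 h array led the other 7 by most were named after their values were seen. After Csn2 and Btn1a1 came Tph1, tryptophan hydroxylase and the first enzyme of serotonin synthesis, with a lead of 0.60 on the log2 scale and a 12 h difference of 1.75 from vehicle. Next were 3 probe sets of Krt8 (leads of 0.54, 0.54 and 0.50). Among the others in the first 15 were Sprr1a, a small proline-rich protein of stratified epithelia, at 0.48, Krt18 at 0.37, Stc2 at 0.36, Lalba at 0.35, Eml4 at 0.34 and Cck, the cholecystokinin precursor, at 0.34. The probe sets at ranks 7, 9 and 10 (0.50, 0.38 and 0.37) carry no single gene symbol in the annotation used here. These leads rest on 1 array and were not tested.

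The caseins lie together on chromosome 5, and in the RefSeq order of GRCm38.p6 Csn1s2b, Prr27 and Odam lie between Csn1s2a and Csn3. On the 12 h array these neighbours lay at 0.11 (Csn1s2b), 0.03 (Prr27) and 0.10 (Odam) relative to vehicle in log2 intensity, and 12 h was not the highest array for any of these 3. The dimmer Csn2 probe set lay at 1.55 and the brighter Csn3 probe set at 0.55.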
